A study of Mus musculus with 5 samples.

Results

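The genes described here are 39 enzymes, or core enzyme subunits, that place or remove methyl groups on histone lysines or remove acetyl groups from them. They were taken by exact symbol from the 55291 gene symbols in each deposited count file, and all 39 were found in all 5 files. The RNA came from mouse bone marrow, from cells labelled as monocytes. There were 3 wild-type libraries (replicates 1, 2 and 3) and 2 libraries labelled Tet2 mutant (replicates 2 and 3). Tet2 is an enzyme that oxidises methylcytosine, and its loss is frequent in clonal haematopoiesis and myeloid neoplasms. The sources used here do not give the Tet2 allele, the mouse strain, age or sex, any treatment, how the cells were isolated, or whether the libraries came from separate animals. The p-values below therefore measure the spread between these libraries only, which may be technical.

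Histone tails carry marks that are written, read and erased. Methylation of histone H3 lysine 4 (H3K4) marks active promoters and enhancers, H3K36 and H3K79 methylation mark transcribed genes, and H3K9 and H3K27 methylation mark silenced ones. H3K27 is methylated by Polycomb repressive complex 2 (PRC2). Histone deacetylases (HDACs) remove the acetyl groups that keep chromatin open. Many of these enzymes take part in blood cell formation, and several are targets of translocation or mutation in leukaemia. The list holds 17 writers (8 of the H3K4 methyltransferase families, 2 for H3K36, 3 for H3K9, 1 for H3K79 and 3 PRC2 core subunits) and 22 erasers (13 demethylases and 9 deacetylases).

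The libraries were not alike in ways the genotype label does not name. Total counts were 53789308 to 72414875 in the wild type, 17459808 in Tet2-mutant replicate 2 and 60508381 in replicate 3. Tet2 itself stood at 9.77 to 11.9 CPM (counts per 1000000 counts of library size, adjusted by TMM, the trimmed mean of M-values) in the wild type, against 5.31 and 15.6 CPM in mutant replicates 2 and 3, so its level does not check the labels. Monocyte markers summed to 13486 to 14869 CPM in the wild type and to 29345 and 19004 CPM in the mutant libraries, most of it from Lyz2, a gene of many myeloid cells. Without Lyz2 the sums were 1577 to 1725 CPM and 2444 and 1137 CPM, with mutant replicate 3 below the wild type. Neutrophil markers were more abundant still in all 5 libraries, at 50135 to 62853 CPM in the wild type and 55386 and 24120 CPM in the mutant. Of the marker lists, 8 of 10 macrophage genes, 5 of 10 dendritic cell genes, 5 of 12 T and NK cell genes and 3 of 12 B cell genes rose, as did 9 of the 9 tested pancreatic acinar genes of 10 listed. B cell genes summed to 1170 to 5331 CPM in the wild type and to 6484 and 18490 CPM in the mutant. Macrophage genes summed to 595 to 863 CPM against 4864 and 3571 CPM, dendritic cell genes to 788 to 1022 against 26425 and 17701 CPM (411 to 449 against 1157 and 1146 CPM without H2-Ab1, an MHC class II gene of several cell types), T and NK cell genes to 316 to 382 against 1406 and 1250 CPM, and acinar genes to 40.1 to 56.4 against 650.1 and 1685 CPM. Of 8 erythroid genes 1 fell (5668 to 14431 against 12423 and 1897 CPM; limma-voom called 5 lower), of 5 tested megakaryocyte genes 1 rose and 1 fell (131 to 156 against 148 and 139.7 CPM), of 10 monocyte genes 2 rose and 1 fell, and of the 12 neutrophil and 12 cycling genes edgeR called none (2 and 5 at an unadjusted p of 0.05). DESeq2 called 2 neutrophil genes lower and limma-voom 4, and for cycling genes 0 and 11. The 12 cycling genes summed to 2970 to 3799 CPM in the wild type and to 2243 and 600.5 CPM in the mutant. No marker gene was at 0 in any library, apart from 1 acinar gene in each and 1 megakaryocyte gene in mutant replicate 3. The Y-linked gene Ddx3y was at 71.4, 69.1 and 0.163 CPM (wild-type replicates 1 to 3) and at 14.7 and 1.22 CPM in the mutant libraries, and Xist was at 0.188, 0.179 and 32.3 CPM and at 27.4 and 21.1 CPM. Mutant replicate 2 thus held both. All 39 genes lie on autosomes. The part of these other cells and of sex in the results below was not tested, and fewer cells of a type cannot be told apart from less RNA per cell.

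The upstream sequences of 3 genes are given first, because Kdm2b showed the largest difference of all 39, and Setd1a and Dot1l the largest in each direction among the writers. KDM2B binds unmethylated CpG islands through its CXXC domain, and CpG is also the site of the methylcytosine that Tet2 oxidises. Each sequence is the 250 bases before an annotated start in RefSeq (GRCm38.p6), 5′ to 3′ on the gene's strand, with every CG dinucleotide in capitals. Kdm2b has annotated starts at its upstream end and inside the gene, and 1 of each is shown. The internal start gives a shorter protein form that lacks the demethylase domain.
Kdm2b upstream start, chr5:122989100-122989349, minus strand: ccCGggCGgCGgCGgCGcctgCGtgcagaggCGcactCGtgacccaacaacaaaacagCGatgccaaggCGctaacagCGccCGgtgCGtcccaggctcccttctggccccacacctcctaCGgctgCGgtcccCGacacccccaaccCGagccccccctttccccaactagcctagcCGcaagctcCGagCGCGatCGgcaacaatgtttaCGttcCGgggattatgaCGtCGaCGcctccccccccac
Kdm2b internal start, chr5:122900351-122900600, minus strand: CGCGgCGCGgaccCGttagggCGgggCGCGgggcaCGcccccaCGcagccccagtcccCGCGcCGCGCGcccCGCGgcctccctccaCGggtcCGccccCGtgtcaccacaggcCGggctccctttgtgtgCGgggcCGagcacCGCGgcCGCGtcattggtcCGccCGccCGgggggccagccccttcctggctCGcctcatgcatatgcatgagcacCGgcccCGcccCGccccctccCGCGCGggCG
Setd1a, chr7:127777139-127777388, plus strand: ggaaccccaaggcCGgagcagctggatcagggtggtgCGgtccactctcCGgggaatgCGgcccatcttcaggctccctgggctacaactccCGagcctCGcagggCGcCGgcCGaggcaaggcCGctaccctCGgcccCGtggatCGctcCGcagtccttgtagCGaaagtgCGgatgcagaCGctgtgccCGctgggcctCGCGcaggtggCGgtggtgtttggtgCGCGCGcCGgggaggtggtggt
Dot1l, chr10:80754953-80755202, plus strand: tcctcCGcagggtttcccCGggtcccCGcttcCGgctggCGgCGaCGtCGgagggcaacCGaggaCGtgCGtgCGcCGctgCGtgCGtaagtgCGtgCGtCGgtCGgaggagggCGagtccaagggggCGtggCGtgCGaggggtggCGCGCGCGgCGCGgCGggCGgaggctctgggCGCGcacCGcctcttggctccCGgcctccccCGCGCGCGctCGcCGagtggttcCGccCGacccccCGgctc
The windows held 27 and 38 CG dinucleotides for Kdm2b, 25 for Setd1a and 44 for Dot1l. CG reads the same on both strands. Of all 32851 windows of this length in the table, 8.56%, 1.88%, 10.7% and 0.539% held at least as many, in the same order. Windows were found for 27 of the 39 genes (38 windows), with a median of 21 CG against 6 over all windows. Kdm2b has a window in the table for each of 4 starts, and those not shown held 36 CG (beside the internal start) and 12 CG (near the upstream one). Counts per gene do not tell which Kdm2b start was used.

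Few of the 39 genes differed between the genotypes beyond the spread of the libraries. Each gene was tested with edgeR's quasi-likelihood F-test, and p-values were adjusted by Benjamini and Hochberg's method over the 17062 genes tested. Kdm2b and Kmt2e rose, Kdm5a fell, and 36 did not pass at an adjusted p of 0.05. That is 7.69% of the 39, against 15.0% of all tested genes (10.6% higher and 4.43% lower). All 39 passed the filter on low counts. At an unadjusted p of 0.05 in edgeR, 12 of the 39 passed, beside 6685 of all 17062 tested genes. The median log2 fold change (mutant over wild type) of the 39 was -0.07, the same as the -0.07 of all tested genes, and 19 were above 0 and 20 below. Both mutant libraries lay above every wild-type library for 11 genes and below every one for 11. Together these 22 make 56.4%, and the share over all tested genes was 56.2% (22.9% above and 33.3% below). The median and the shares without overlap were thus near those of all tested genes, and the share of calls was lower. DESeq2 called 6 of the 39 higher and 3 lower, beside 2972 higher and 2137 lower of all 17062 tested genes. Counts were also simulated for 12351 genes, with the fitted trend of spread for each gene and fewer changed genes than were called here. There edgeR's test called 1 of 50 genes changed 2-fold and 18 of 50 changed 4-fold, so it found mainly large differences. The share it finds in these data may differ.

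**Figure D1:**
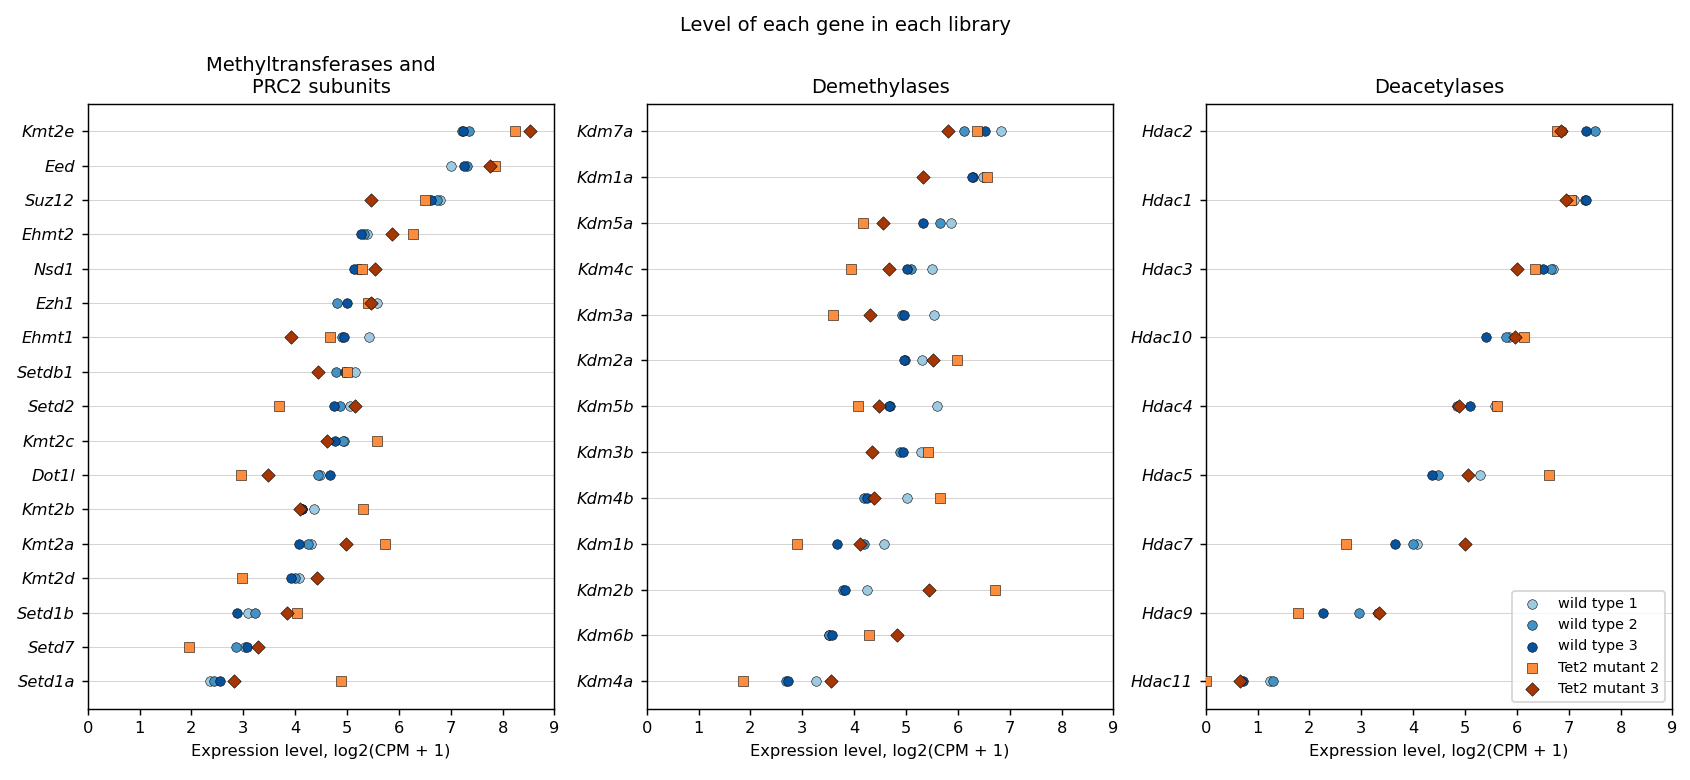
Level of each of the 39 genes in each library, as log2(CPM + 1), in 3 panels by class and ordered by the wild-type mean; circles are wild-type libraries 1 to 3, the square is Tet2-mutant replicate 2 and the diamond Tet2-mutant replicate 3. Kdm2b and Kmt2e stand to the right of the wild type in both mutant libraries and Kdm5a to the left, while for Hdac7 the square (5.55 CPM) and the diamond (30.9 CPM) lie on opposite sides of it.

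Of the 8 H3K4 writers, 6 had a log2 fold change above 0 and 1 was called. Kmt2e encodes a SET-domain protein of this family that binds methylated H3K4 and is not known to methylate it, and mice without it have defective blood stem cells. Wild-type replicates 1, 2 and 3 held 148, 162 and 151 CPM of it, and mutant replicates 2 and 3 held 301 and 367 CPM. All wild-type values lay close together and both mutant values were far above them. The means were 153 ± 7.27 (SD, n = 3) and 334 ± 47.0 CPM (SD, n = 2), a log2 fold change of 1.12 ± 0.23 (SE; edgeR adjusted p = 0.0251). The call was absent without each wild-type library in turn (edgeR adjusted p = 0.0587 to 0.076). It was also absent with scaling to library size alone (0.62, adjusted p = 0.09) and with upper-quartile scaling (0.86, adjusted p = 0.0541). With the replicate number as a block in edgeR the adjusted p was 0.156. Kmt2e lies on chromosome 5 (23434441 to 23504235, GRCm38). Its exons share 972 bases, 9.3% of its exon length, with Srpk2 on the opposite strand, whose log2 fold change was -0.09.

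Kmt2a, the H3K4 methyltransferase disrupted in MLL-rearranged leukaemia, had 18.7, 17.9 and 15.8 CPM in the wild type, against 52.4 and 30.6 CPM in the mutant. Both mutant libraries were above the wild type, by unequal amounts (log2 fold change 1.25 ± 0.36, edgeR adjusted p = 0.0566), and DESeq2 called it (adjusted p = 0.0104). Setd1a, the catalytic subunit of a SET1 complex, stood at 4.10, 4.41 and 4.88 CPM in the wild type, against 28.5 and 6.11 CPM in the mutant. The gap was wide in mutant replicate 2 and narrow in replicate 3, and it did not pass (1.95 ± 0.69, edgeR adjusted p = 0.087). Its exons share 51.8% of their bases with Gm49388, a gene model on the same strand, so counts could be split between them. Setd1a passed with DESeq2 (adjusted p = 0.0185) and with no filter (adjusted p = 0.0445). Its paralogue Setd1b was at 6.35 to 8.30 CPM in the wild type, against 15.4 and 13.3 CPM in the mutant, without overlap (0.96 ± 0.46, adjusted p = 0.162). DESeq2 called Setd1b (adjusted p = 0.0269).

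The other H3K4 writers put the mutant libraries on opposite sides. Kmt2b, which acts at promoters, ranged from 16.6 to 19.7 CPM in the wild type, with 38.6 CPM in mutant replicate 2 and 16.0 CPM in replicate 3. Kmt2c, which acts at enhancers, ranged from 26.4 to 29.6 CPM, with 47.1 and 23.3 CPM in the same order. Kmt2d, the partner of Kmt2c at enhancers, did the reverse. Its wild-type range was 14.1 to 15.9 CPM, with 6.89 CPM in mutant replicate 2 and 20.4 CPM in replicate 3. Setd7, which methylates H3K4 and several other proteins, was at 2.85 and 8.75 CPM in the mutant and at 6.23 to 7.38 CPM in the wild type. With library size alone or upper-quartile scaling, Kmt2c was also below 0 and 5 of 8 writers were above it.

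The 4 H3K4 demethylases were all below 0 and 1 was called; this held under each scaling, while without mutant replicate 3 it was 3 of 4. Kdm5a, which removes methyl groups from trimethylated H3K4, measured 57.4, 49.7 and 39.3 CPM in the wild type, against 16.95 and 22.5 CPM in the mutant. Both mutant libraries were below the lowest wild-type library. The means were 48.8 ± 9.07 (SD, n = 3) and 19.7 ± 3.94 CPM (SD, n = 2), a log2 fold change of -1.30 ± 0.34 (SE; edgeR adjusted p = 0.0456). This call had the largest adjusted p of the 3. It was absent with limma-voom (adjusted p = 0.0566), with the replicate block (edgeR adjusted p = 0.405) and without each wild-type library in turn (edgeR adjusted p = 0.15 to 0.214). Kdm5a lies on chromosome 6 (120364124 to 120444574), and 1.8% of its exon bases are shared with Ccdc77 on the opposite strand (-1.04).

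Its paralogue Kdm5b was at 47.1 CPM in wild-type replicate 1 and at 24.7 and 24.6 CPM in replicates 2 and 3, with 15.8 and 21.3 CPM in the mutant (-0.79 ± 0.43, edgeR adjusted p = 0.206). Kdm1a, the LSD1 demethylase of mono- and dimethylated H3K4 and a drug target in leukaemia, had 88.5, 77.5 and 76.6 CPM in the wild type, against 94.0 and 39.2 CPM in the mutant. The mutant libraries thus lay on opposite sides of the wild type (-0.28 ± 0.39, adjusted p = 0.6). Kdm1b was at 11.7 to 22.7 CPM in the wild type, against 6.42 and 16.2 CPM in the mutant.

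Of the H3K36 enzymes only a demethylase passed the test. Kdm2b removes methyl groups from H3K36 and brings a Polycomb complex to CpG islands. It stood at 18.0, 12.8 and 13.2 CPM in the wild type, against 104 and 42.3 CPM in the mutant. Each mutant library was above every wild-type library, and replicate 2 was 2.45 times replicate 3. The means were 14.7 ± 2.90 (SD, n = 3) and 72.9 ± 43.4 CPM (SD, n = 2), a log2 fold change of 2.31 ± 0.43 (SE; edgeR adjusted p = 0.0199). Its call was absent without wild-type replicate 1 (edgeR adjusted p = 0.0504), where the estimate was 2.58, and was present in the other 12 alternatives, with adjusted p from 3.95e-05 to 0.0406. Kdm2b lies on chromosome 5 (122870665 to 122989823), where 5.8% of its exon bases are shared with Rnf34 on the opposite strand (log2 fold change 0.89) and 1.8% with A930024E05Rik, also opposite (-7.13). Kdm2a, its paralogue, was at 29.999 to 38.9 CPM in the wild type, against 62.3 and 44.7 CPM in the mutant (0.69 ± 0.31, adjusted p = 0.142).

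Neither H3K36 writer was called, by edgeR or DESeq2. Setd2, which trimethylates H3K36 along transcribed genes, was at 25.9 to 32.2 CPM in the wild type, against 11.9 and 34.6 CPM in the mutant, on opposite sides. Nsd1, a dimethylase of H3K36, was at 33.9 to 37.0 CPM in the wild type, against 37.9 and 45.4 CPM in the mutant (0.23 ± 0.29, edgeR adjusted p = 0.566). Nsd1 was below 0 with library size alone (-0.27) and upper-quartile scaling (-0.03).

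Dot1l, the only known H3K79 methyltransferase and a dependency of MLL-rearranged leukaemia, was the lowest writer relative to the wild type. It measured 21.2, 20.8 and 24.4 CPM in the wild type, against 6.73 and 10.2 CPM in the mutant. Both mutant values were below the wild-type range (-1.38 ± 0.42, edgeR adjusted p = 0.0631). It passed with DESeq2 (adjusted p = 0.00463) and, in edgeR, with library size alone (adjusted p = 0.032) and with upper-quartile scaling (adjusted p = 0.0498). With both mutant libraries it passed in no other alternative (edgeR or limma-voom adjusted p = 0.0563 to 0.48), among them those without each wild-type library. Without mutant replicate 2 or 3 its log2 fold change was -1.12 or -1.72.

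In PRC2 the core subunits parted. Eed, which reads trimethylated H3K27 and stimulates the complex, had 127, 157 and 151 CPM in the wild type, against 231 and 214 CPM in the mutant, without overlap (0.62 ± 0.23, edgeR adjusted p = 0.0974). Suz12, the scaffold of the complex, stood at 109, 106 and 97.5 CPM in the wild type, against 89.4 and 43.4 CPM in the mutant, also without overlap but below it (-0.65 ± 0.34, adjusted p = 0.192). Ezh1, the catalytic subunit that predominates in cells that do not divide, measured 46.9, 26.8 and 30.9 CPM in the wild type, against 41.2 and 43.1 CPM in the mutant, within the wild-type range. Suz12 passed in edgeR with library size alone (-1.22, adjusted p = 0.0304) and upper-quartile scaling (-1.01, adjusted p = 0.0436). With both mutant libraries it passed in no other alternative (adjusted p from 0.075 with limma-voom to 0.521 with the replicate block in edgeR). Without mutant replicate 2 or 3 it was at -1.27 or -0.23. Eed passed in none of the 13 alternatives, and 6.8% of its exon bases are shared with E230029C05Rik on the opposite strand (1.07).

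Kdm6b removes H3K27 methylation and is induced in macrophages by inflammatory stimuli. It had 10.4, 10.4 and 10.8 CPM in the wild type, against 18.5 and 27.4 CPM in the mutant. Wild-type libraries were nearly equal and both mutant libraries were above them, without passing (1.12 ± 0.40, edgeR adjusted p = 0.0874). DESeq2 called it (adjusted p = 0.0106). With both mutant libraries it passed in no other alternative (limma-voom or edgeR adjusted p = 0.0578 to 0.598). Without mutant replicate 2 or 3 its log2 fold change was 1.38 or 0.8. The summed macrophage markers were also higher in both mutant libraries, at 4864 and 3571 CPM against 595 to 863 CPM, and their part in the Kdm6b values was not tested. Kdm7a, which acts on H3K9 and H3K27, stood at 113, 68.3 and 91.5 CPM in the wild type, against 81.9 and 55.3 CPM in the mutant (-0.41 ± 0.32, adjusted p = 0.362).

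No writer or demethylase of H3K9 was called by edgeR, though Ehmt2, Kdm3a and Kdm4c passed at an unadjusted p of 0.05 and DESeq2 called Kdm3a (adjusted p = 0.0367). With library size alone, edgeR called Ehmt1 (-1.36, adjusted p = 0.0402) and Kdm3a (-1.70, adjusted p = 0.0392). Ehmt1 and Ehmt2 form a heterodimer that dimethylates H3K9, and they stood on opposite sides of 0. Ehmt2 was at 37.8 to 40.6 CPM in the wild type, against 76.2 and 57.6 CPM in the mutant (0.77 ± 0.28, edgeR adjusted p = 0.0877). Ehmt1 was at 29.1 to 41.7 CPM in the wild type, against 24.4 and 14.1 CPM in the mutant (-0.80 ± 0.40, adjusted p = 0.172). Setdb1, which trimethylates H3K9 at retroelements, was at 26.7 to 34.5 CPM in the wild type, against 30.8 and 20.9 CPM in the mutant.

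Kdm3a, a hypoxia-inducible H3K9 demethylase, measured 45.7, 29.2 and 30.05 CPM in the wild type, against 11.1 and 18.8 CPM in the mutant, without overlap (-1.22 ± 0.42, edgeR adjusted p = 0.0805). Kdm4c also had no overlap, at 14.3 and 24.4 CPM against 31.3 to 44.3 CPM (-0.91 ± 0.39, adjusted p = 0.127). Its relative Kdm4a was at 5.44 to 8.56 CPM in the wild type, against 2.61 and 10.8 CPM in the mutant, on opposite sides. Kdm4b ranged from 17.2 to 31.3 CPM in the wild type, with 49.5 CPM in mutant replicate 2 and 19.8 CPM, within that range, in replicate 3. Kdm3b ranged from 28.4 to 38.2 CPM, with 41.7 CPM above and 19.4 CPM below it in the same order.

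No deacetylase was called, while 1 of the 9 passed at an unadjusted p of 0.05 (Hdac5) and DESeq2 and limma-voom also called none. The class I enzymes Hdac1, Hdac2 and Hdac3, the catalytic subunits of the nuclear corepressor complexes, each had both mutant libraries below the wild-type range. Hdac1 had 136, 158 and 161 CPM in the wild type, against 132 and 123 CPM in the mutant (-0.25 ± 0.23, edgeR adjusted p = 0.428). Hdac2 stood at 116, 180 and 161 CPM in the wild type, against 108 and 114 CPM in the mutant (-0.46 ± 0.27, adjusted p = 0.241). Hdac3 was at 89.9 to 103 CPM in the wild type, against 80.6 and 63.0 CPM in the mutant (-0.44 ± 0.25, adjusted p = 0.219). None of the class I gaps passed with TMM scaling and all libraries, while Hdac3 did without mutant replicate 2 (-0.63, adjusted p = 0.0424). With scaling to library size alone these genes passed (adjusted p = 0.0445, 0.0443 and 0.03), but there the median of all tested genes was -0.58.

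Class IIa deacetylases, which shuttle between cytoplasm and nucleus and act with myocyte enhancer factors, put the mutant libraries far apart. Hdac5 measured 38.1, 21.3 and 19.5 CPM in the wild type, against 97.7 and 32.4 CPM in the mutant. Mutant replicate 2 alone was above the wild-type range (1.31 ± 0.52, edgeR adjusted p = 0.112), and the gene passed when no filter was applied (adjusted p = 0.0297). Hdac7, needed for normal lymphocyte development, was at 11.5 to 15.9 CPM in the wild type, against 5.55 and 30.9 CPM in the mutant. Hdac9 was at 3.77 to 9.02 CPM and at 2.46 and 9.14 CPM, on opposite sides of the wild type like Hdac7. Hdac4 was at 27.9 to 46.8 CPM and at 48.3 and 28.4 CPM (0.09 ± 0.38).

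Hdac10, a class IIb enzyme that mainly deacetylates polyamines, was at 41.6 to 56.7 CPM in the wild type, against 69.1 and 61.2 CPM in the mutant (0.36 ± 0.28, edgeR adjusted p = 0.355). Hdac11, the class IV enzyme, was the lowest of all. It had 1.35, 1.47 and 0.653 CPM in the wild type. Mutant replicate 2 had 0 counts, where 3 counts would be 0.238 CPM, and replicate 3 had 0.591 CPM (32 counts). Its log2 fold change of -1.78 ± 1.21 (adjusted p = 0.294) therefore rests on few counts.

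**Figure D2:**
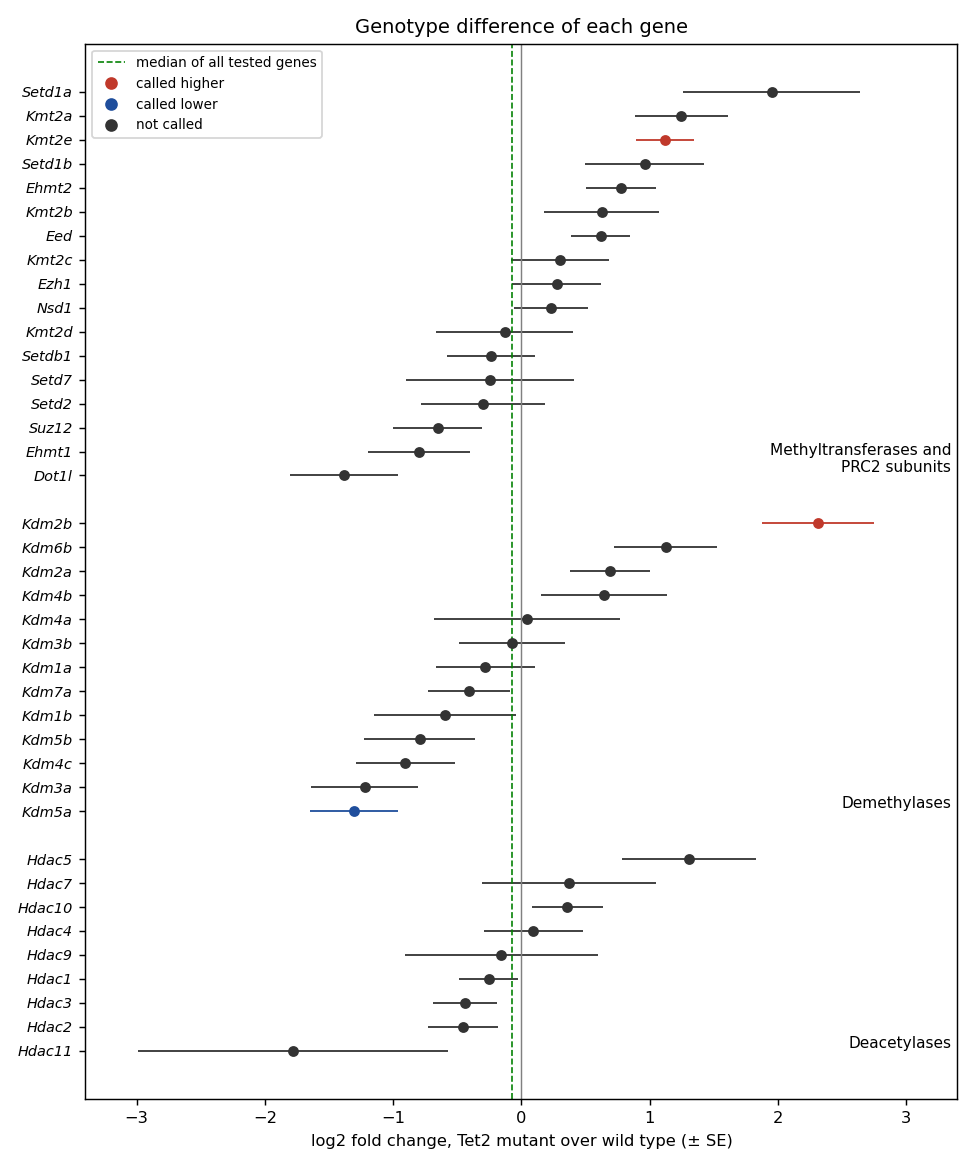
Log2 fold change of Tet2 mutant over wild type for each of the 39 genes (points) with its SE (bars), grouped by class; red marks genes called higher, blue lower and grey not called, and the dashed line is the median of all 17062 tested genes (-0.07). Kdm2b at 2.31 and Kdm5a at -1.30 lie at opposite ends of the demethylases.

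The mutant libraries often disagreed. For 10 of the 39 genes, 1 mutant library lay above every wild-type library and the other below every one, which is 25.6% against 21.5% of all tested genes. These were Kmt2b, Kmt2c, Kmt2d, Setd2, Setd7, Kdm1a, Kdm3b, Kdm4a, Hdac7 and Hdac9. Kmt2b, Kmt2c, Kdm1a and Kdm3b were high in mutant replicate 2, and the other 6 were high in replicate 3. The widest gap was that of Hdac7, with a difference from the wild-type mean of -1.20 in mutant replicate 2 and 1.09 in replicate 3 on the log2(CPM + 1) scale. For genes of this kind the mean of the mutant describes neither library. Estimates depended on the library accordingly. Without mutant replicate 3, the log2 fold change was -1.36 for Hdac7 and -1.33 for Kdm4a. Without mutant replicate 2 it was 1.12 and 0.72 in the same order. A fit with 1 mutant library gives that library the spread of the wild type, so the number called there is not given.

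**Figure D3:**
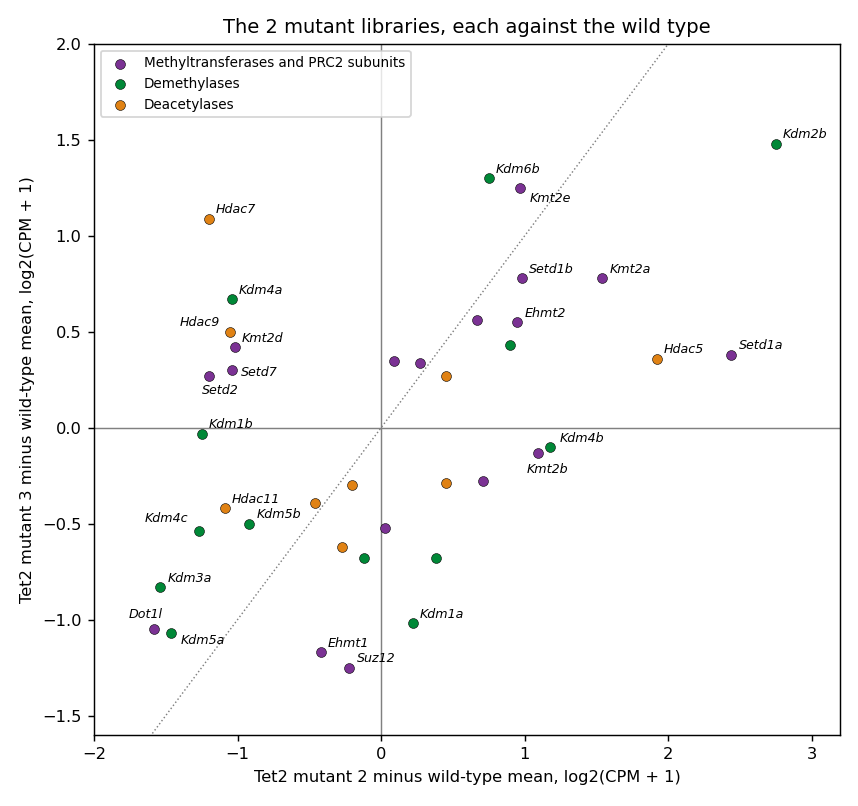
Difference of each gene from the wild-type mean on the log2(CPM + 1) scale in Tet2-mutant replicate 2 (horizontal axis) and replicate 3 (vertical axis), coloured by class, with the dotted line marking equal values. Kdm2b (2.75 and 1.48) and Kmt2e (0.97 and 1.25) are high in both libraries, Dot1l (-1.58 and -1.05) and Kdm5a (-1.46 and -1.07) low in both, and the upper left and lower right hold genes on which the libraries disagree.

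Writers and erasers were then set against each other. The 17 writers had a median log2 fold change of 0.27, the 13 demethylases -0.28 and the 9 deacetylases -0.16, beside -0.07 for all tested genes. Of 17 writers, 7 (41.2%) had both mutant libraries above the wild-type range and 3 (17.6%) below it. Of 22 erasers, 4 (18.2%) had both above and 8 (36.4%) below. Over all tested genes the shares were 22.9% above and 33.3% below, so the erasers were near them. The sign of the writer median depended on the scaling, at -0.26 with library size alone and -0.03 with upper-quartile scaling, which moved the median of all genes to -0.58 and -0.35. Relative to all genes the writer median was 0.35 higher with TMM and 0.32 higher with either of these. It was 0.16 higher with a filter of 1 CPM in at least 3 libraries, 0.23 without wild-type replicate 3, 0.64 and 0.72 without mutant replicates 2 and 3, and 1.64 with no filter, so its size depended on the genes and libraries used. The writer median minus the eraser median was 0.48, and it was 0.39 to 0.66 over the 13 alternatives. No test of this difference was made, because the genes were chosen with results of these data known.

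A ratio within each library does not depend on scaling between libraries. The summed level of the 17 writers, in CPM per kilobase of exon (union of annotated exons), was 0.578, 0.598 and 0.61 times that of the 22 erasers in wild-type replicates 1, 2 and 3. It was 0.848 and 0.915 times in mutant replicates 2 and 3. Both mutant ratios were above the wild-type range, with means of 0.595 ± 0.0159 (SD, n = 3) and 0.882 ± 0.0476 (SD, n = 2), or 1.48 times higher. The size of the gap rested largely on 2 genes. Without Kmt2e the ratios were 0.503 to 0.527 in the wild type and 0.689 and 0.68 in the mutant. Without Kmt2e and Eed they were 0.291 to 0.325 and 0.356 and 0.304, and mutant replicate 3 lay within the wild-type range. Eed has no catalytic domain, and Kmt2e is not known to methylate histones.

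Separated by mark, the ratios went different ways. For H3K4, the 8 writers over the 4 demethylases gave 0.764, 0.971 and 0.992 in the wild type and 2.07 and 3.26 in the mutant, on the per-kilobase scale. Without Kmt2e the H3K4 ratio was 0.260 to 0.312 in the wild type and 0.725 and 0.634 in the mutant, still without overlap. For H3K9 it was 0.740 to 0.946 and 1.23 and 1.11. The H3K36 ratio of Setd2 and Nsd1 to Kdm2a and Kdm2b went the other way, at 1.16, 1.43 and 1.32 in the wild type and 0.236 and 0.833 in the mutant. Kdm4a, Kdm4b and Kdm4c, which also act on H3K36, were counted in the H3K9 ratio only. Their wild-type means were 1.13, 4.52 and 6.24 CPM per kilobase, against 2.30 for Kdm2a and 1.35 for Kdm2b. An H3K36 ratio with them was not calculated. The H3K27 ratio of the PRC2 subunits to Kdm6b was 40.7 to 44.1 in the wild type and 31.7 and 17.9 in the mutant. The more abundant Kdm7a, which acts on H3K9 and H3K27, was in neither the H3K9 nor the H3K27 ratio. With Kdm7a added to Kdm6b, the H3K27 ratios overlapped, at 4.83, 7.98 and 5.95 in the wild type and 7.78 and 7.47 in the mutant. When each gene was left out in turn, the H3K4 ratio kept both mutant libraries above the wild type in 12 of 12 cases. The H3K9 ratio overlapped without Ehmt2 (0.428 to 0.509 against 0.433 and 0.348) or without Kdm4c (1.09 to 1.46 against 1.44 and 1.60). The H3K36 ratio overlapped without Kdm2b (1.87 to 2.22 against 0.758 and 1.88). The H3K27 ratio kept both mutant libraries below the wild type in 3 of 3 cases, with Kdm6b always kept. Of the 4 ratios, then, only that for H3K4 kept the genotypes apart with every gene left out in turn. The H3K27 cases left out writers only, so they do not test its dependence on Kdm6b. This ratio overlapped when Kdm7a was added. It also lacks Kdm6a, an X-linked H3K27 demethylase outside the genes described here. Kdm6a had means of 3.41 CPM per kilobase in the wild type and 3.50 in the mutant, against 1.52 and 3.30 for Kdm6b. An H3K27 ratio with Kdm6a was not calculated. No gene was added to the other ratios.

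**Figure D4:**
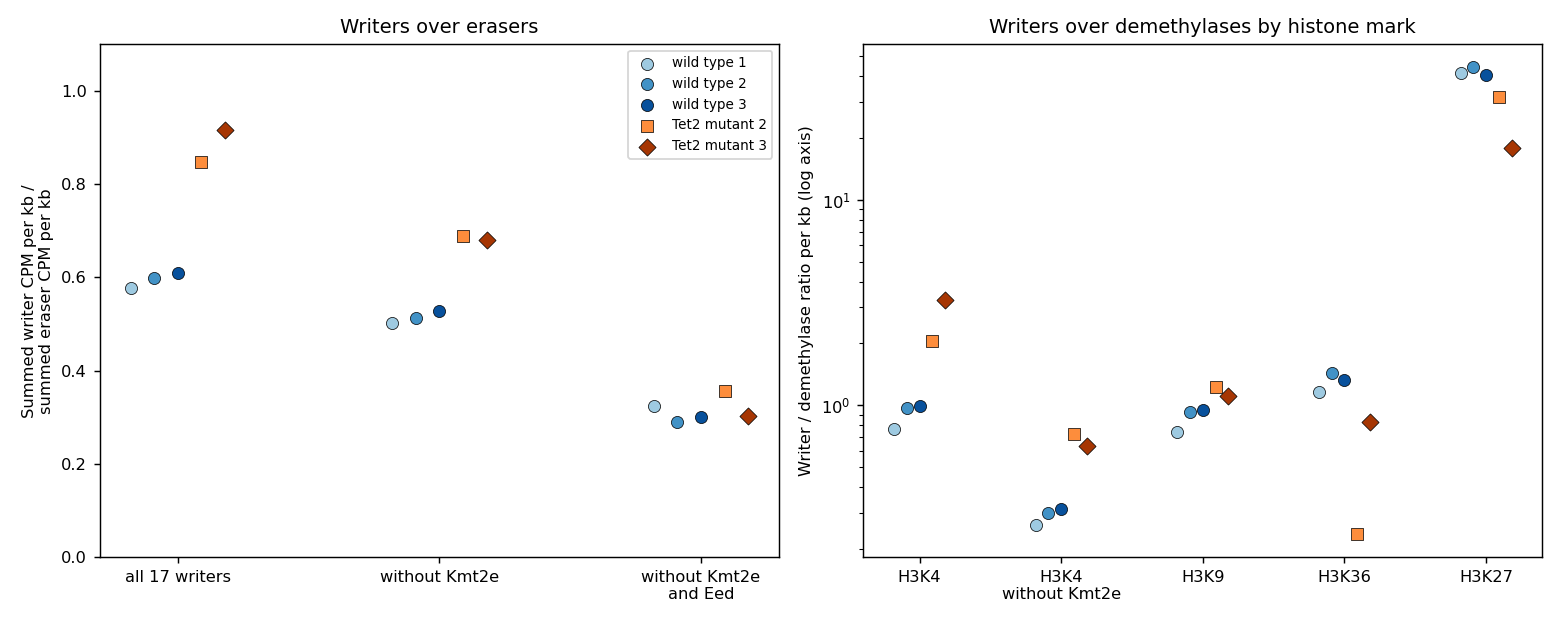
Left, summed writer level over summed eraser level in each library (CPM per kilobase of exon), with all 17 writers, without Kmt2e, and without Kmt2e and Eed. Right, writers over demethylases for each histone mark on a log axis. Kdm6b alone is counted as the H3K27 demethylase, and Kdm2a and Kdm2b alone are counted as the H3K36 demethylases. With these genes the mutant libraries (square and diamond) are above the wild type for H3K4 and H3K9 and below it for H3K36 and H3K27.

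Per kilobase of exon, the most abundant writers in the wild type were Eed at 37.96 and Suz12 at 21.1 CPM, followed by Kmt2e at 14.7. In the mutant they were Eed at 58.2, Kmt2e at 32.0 and Suz12 at 13.4, so that Kmt2e and Suz12 changed places. Among the demethylases, Kdm1a led in both genotypes (15.6 in the wild type and 12.9 in the mutant). Kdm7a came next in the wild type (9.05), while in the mutant Kdm4b (7.08), Kdm7a (6.82) and Kdm2b (6.71, from 1.35) were close together. Hdac1 (44.0 and 36.9) and Hdac2 (34.0 and 24.8) led the deacetylases. In the mutant, Kmt2e stood above Hdac2. The lowest level in both genotypes was that of Hdac11 (0.301 and 0.0767). Many of these transcripts are long, and 17 of the 39 genes, 9 of them writers, fell in the top decile of tested genes by exon length. All genes of that decile had a median log2 fold change of -0.17. Across the 39 genes, length and log2 fold change had a Spearman rho of 0.168, across 16704 tested genes with a length -0.031, as descriptions over genes that share the same libraries.

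Few partners of these enzymes were called. Of 11 tested shared subunits of the H3K4 methyltransferase complexes none was called (2 at an unadjusted p of 0.05, median -0.35). The smallest p in this group was that of Dpy30, at 47.8, 77.4 and 74.5 CPM in the wild type and 142 and 124 CPM in the mutant (0.999, edgeR adjusted p = 0.0557). Hcfc1, X-linked, was at -0.99 (adjusted p = 0.0706), and DESeq2 called these 2 genes. None of 9 PRC2 subunits outside the 39 was called (3 at an unadjusted p of 0.05, median -0.60). The catalytic subunit Ezh2 stood at 84.5, 137 and 112 CPM in the wild type, against 60.8 and 44.6 CPM in the mutant (-1.08, adjusted p = 0.0569), and the accessory subunit Phf19 was at -2.46 (adjusted p = 0.0809). DESeq2 called 3 of the 9 lower, Ezh2, Phf19 and Phf1. Ezh2 and Suz12 were both lowest in mutant replicate 3, the library with the lowest sum of cycling genes, and the part of cycling cells was not tested.

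Among 16 other lysine methyltransferases 1 fell and none rose. This was the X-linked H3K9 methyltransferase gene Suv39h1, at 91.4, 101 and 106 CPM against 51.7 and 23.1 CPM (-1.41, edgeR adjusted p = 0.0495). In 9 tested other demethylases of the Jumonji type, Jmjd6 rose (1.02, adjusted p = 0.0361) and Riox1 fell (-1.29, adjusted p = 0.0291). None of 9 other deacetylases passed, with 3 at an unadjusted p of 0.05 and a median of 0.85. The sirtuin genes Sirt2 and Sirt3 were at 0.96 and 1.13 (adjusted p = 0.0512 for both), and DESeq2 called 3 higher (Sirt2, Sirt3 and Sirt6). Of 25 subunits of deacetylase corepressor complexes, Sin3b (1.42, adjusted p = 0.0135) and the nucleosome remodeller Chd3 (2.18, adjusted p = 0.0209) rose. Rcor1, the partner that brings Kdm1a and Hdac1 together, fell from 97.4, 74.5 and 87.8 CPM to 31.9 and 35.1 CPM (-1.37, adjusted p = 0.0249). None of 13 histone acetyltransferases was called by edgeR or DESeq2, and 0 passed at an unadjusted p of 0.05. Ncoa3 (0.75, adjusted p = 0.174) and Kat7 (-0.77, adjusted p = 0.156) came nearest. Of all 17062 tested genes, 15.0% were called and 6685 passed at an unadjusted p of 0.05 in edgeR. None of these groups is set apart from all tested genes by a test.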

How the data were processed

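RNA-seq counts of 5 mouse bone marrow libraries, 3 wild type and 2 Tet2 mutant, were analysed. The authors deposited 1 file of raw counts per library. Per the labels' protocols, the SMARTer kit for mRNA-Seq was used on total RNA. Trimmomatic, STAR and mm10 are named, per the submitters' processing notes. For tool versions, the read counter, its annotation and its strand setting, the sources used here give nothing, so exons shared with opposite-strand genes cannot be separated. No molecular identifiers are named, so errors cover counting and the spread between libraries only.

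The deposited counts entered edgeR 4.0.16 unchanged (R 4.3.3; alternatives in DESeq2 1.42.0 and limma 3.58.1). Genes kept by filterByExpr (17062) were scaled by TMM, with factors of 1.14 to 1.17 in the wild type and 0.724 and 0.896 in mutant replicates 2 and 3, and tested by edgeR's quasi-likelihood F-test (common biological coefficient of variation 0.507). CPM used the TMM-adjusted library sizes; total counts were 17459808 to 72414875. SE is the log2 fold change divided by the square root of F. Exon lengths and positions are from GENCODE M21 (GRCm38, the mm10 build) and upstream sequences from RefSeq. The pipeline was tested on simulated data, where it made 2 false calls.

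The members and lists were chosen with earlier results of these data known. Values in every library are given for genes called, genes at an absolute log2 fold change of 1 or more, the 2 most abundant per kilobase of each class and the H3K27 set. From related lists, up to 4 called genes with the smallest p were named, or 2 where none was called; other values of the 39 are summaries. Of the listed related genes, Ezhip was not matched. Alternatives were other scalings, filters and tests, the replicate block and each library left out; leaving genes out of the ratios, adding Kdm7a at H3K27 and leaving the most abundant gene out of the marker sums were chosen after seeing the data.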

Additional observations from a re-analysis of the deposited data

How the results depend on the processing

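The counts of called genes moved most. Against 2 higher and 1 lower, there were 1 and 8 with library size alone, 1 and 3 with upper-quartile scaling, 4 and 1 with no filter, 6 and 3 with DESeq2, and 2 and 0 with limma-voom. Over the fits without 1 library they ranged from 0 to 12 higher and 0 to 11 lower. The largest came without Tet2-mutant replicate 3 (12 and 11) and without replicate 2 (7 and 6), where the single mutant library was given the spread of the wild type. Without wild-type replicates 1, 2 and 3 there were 0, 1 and 1 higher and none lower (7, 5 and 5 at an unadjusted p of 0.05 in edgeR). With the replicate block 1 gene was higher (Kdm2b) and 0 lower (3 at an unadjusted p of 0.05). Whether the shared numbers 2 and 3 pair the samples was not settled. Deviations from the group means correlated at -0.087 and -0.095 between libraries of 1 number. With 2 mutant libraries their deviations are equal and opposite, so these correlations cannot decide it. The writer median was -0.26 with library size alone and -0.03 with upper-quartile scaling, and 0.23 to 0.44 over the fits without 1 library. The demethylase median was -0.86 and -0.65 under those scalings and -0.58 to -0.1 without 1 library. The deacetylase median was -0.59 with library size alone and -0.31 to 0.37 without 1 library, above 0 without wild-type replicate 1 (0.37) or 2 (0.07). Writers minus erasers ranged from 0.39 to 0.66 without 1 library. The writer to eraser ratio of mutant over wild type, 1.48, was 1.33 without Kmt2e and 1.08 without Kmt2e and Eed. It was 1.42 to 1.54 without 1 library. Without Tet2-mutant replicate 3, Kdm4a (-1.33) and Hdac7 (-1.36) were below 0, the reverse of their sign with all libraries. Without replicate 2 they were at 0.72 and 1.12. Other genes changed sign without replicate 2, among them Kmt2b (0.63 with all libraries, -0.14 without it), Kmt2c (0.3 and -0.29), Kmt2d (-0.13 and 0.44), Setd2 (-0.3 and 0.27) and Hdac9 (-0.16 and 0.49). Of 506 values of single genes over 13 alternatives, 447 stayed on their side of the threshold, 12 lost a call, 45 gained one and 2 reversed. A change of sign without a call was counted among the 447. The cause was not tested for any of these changes, beyond the smaller number of libraries. Depth limits Hdac11 most, with 0 and 32 counts in the mutant libraries.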
